A study of Mus musculus with 6 samples.

Results

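Sertoli cells are the somatic cells of the seminiferous tubule that surround and feed the developing germ cells. They release carrier proteins, proteases and protease inhibitors into the tubule, and they are the cells through which testosterone sustains spermatogenesis. The homeobox gene Rhox5 is a well known androgen-responsive gene of Sertoli cells. The genes described here are 10 Sertoli secreted and androgen-response products, taken by symbol from the 55711 entries of the deposited table: Clu, Trf, Ctsl, Aard, Rhox5, Rhox8, Cst9, Cst12, Defb45 and Gstm6. All 10 had 1 row each. No hormone was changed in the study, so the androgen part of the name comes from earlier knowledge and was not tested by these samples.

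RNA from whole mouse testis was sequenced in 3 libraries labelled heterozygote for Tmc7 (control) and 3 labelled Tmc7 knockout, all on the C57BL6 strain. Tmc7 encodes a transmembrane channel-like protein. Control libraries are called C1 to C3 below and the knockout-labelled ones K1 to K3. Neither the allele nor the age is in the labels. Nor do they state that each library is a different animal, and a p-value here therefore reflects spread among these 6 samples, some of which may be technical. Levels are in FPKM, a read count divided by gene length and library size. Reads recovered from the steps of the FPKM values summed to 17059486 to 19343479 per library. The library sizes implied by those steps were 16450310 to 19497384, so the divisor was not exactly these sums. It was below the sum in C1, C2, K1 and K2 and above it in C3 and K3. In K3 it was 19497384 against a sum of 18140921, and in C1 16450310 against 17059486. In bulk RNA of this kind, fewer Sertoli cells and less RNA per Sertoli cell cannot be told apart.

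Several measurements of the whole libraries touch the results. Tmc7 measured 39.1, 37.7 and 37.2 FPKM in C1 to C3 against 43.8, 41.9 and 35.1 FPKM in K1 to K3, so its level does not check the labels, and directions rest on the labels alone. The 6 Sertoli markers Sox9, Wt1, Gata4, Amhr2, Fshr and Cldn11 were all detected, with means over the 6 libraries from 1.52 FPKM for Fshr to 106 FPKM for Amhr2. Of 9 epididymal markers, whose tissue also makes clusterin, cystatins and beta-defensins, 8 had a mean under 0.5 FPKM, and Lcn5 was at 0 in every library. K2 and K3 stood apart from the other 4: the share of reads on gene models of small and ribosomal RNA was 0.335% and 0.281%, against 0.0949% to 0.105%. The part of this difference in the results below was not tested.

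The comparison asked whether these Sertoli products differed between Tmc7 knockout and heterozygous testes. None of the 9 members that could be tested passed (limma-trend on log2(FPKM + 1), Benjamini-Hochberg adjusted p under 0.05 over 19168 genes averaging 0.5 FPKM or more). The background was 0.0% of genes called. The member counts were 0 higher and 0 lower, and the smallest adjusted p of a member was 0.868. At an unadjusted p under 0.05 there was 1 member, Gstm6, against 3.87% of all genes tested in either direction and 1.48% in the higher one. By limma-voom on the recovered reads 0 of 10 members passed and 1 was under 0.05 unadjusted, with 1 gene passing in all. No member had groups that did not overlap, where 8.56% of all tested genes had such groups, 4.15% higher and 4.41% lower. The log2 differences of the 9 members ran from -0.26 for Cst9 to 0.40 for Gstm6, with a median of 0.15 (0.06 without K2 to 0.26 without K1), while the median over all tested genes was -0.01.

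**Figure D1:**
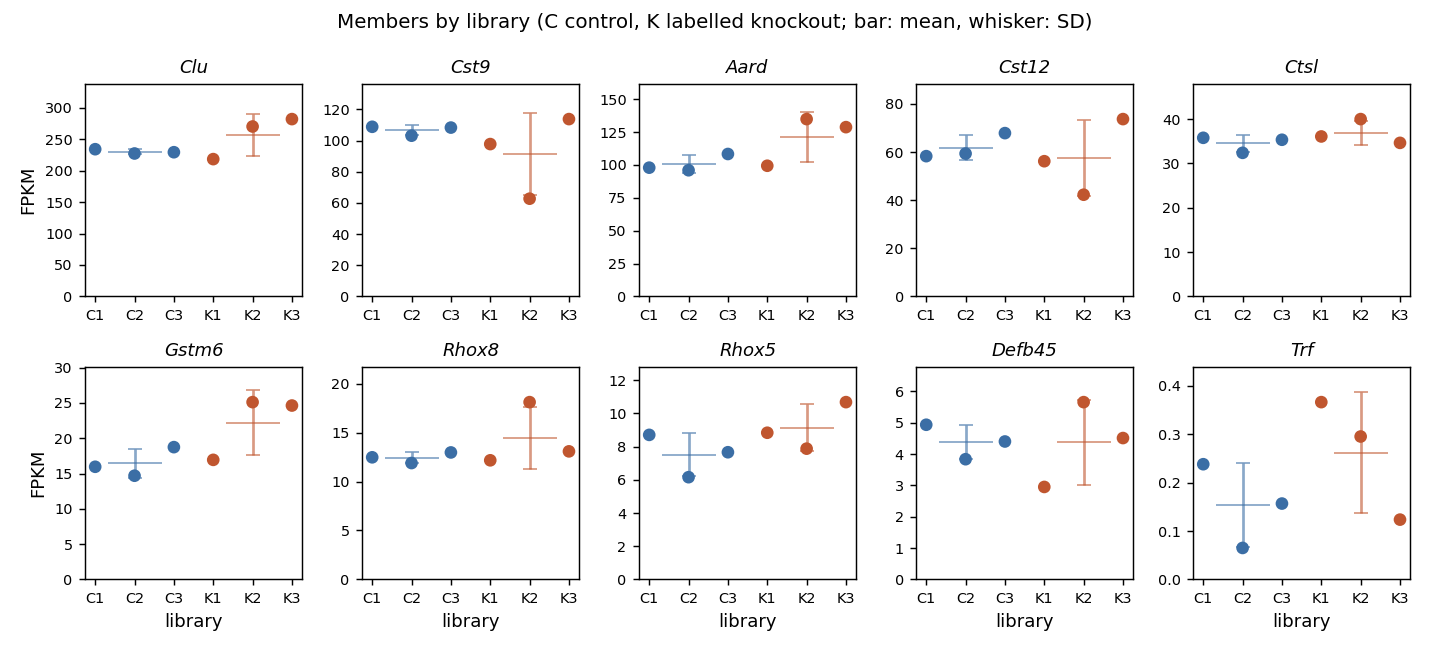
FPKM of the 10 members in each library, 1 panel per gene with its own axis from 0, with the group mean as a bar and the SD as a whisker (n = 3 each). K1 lies within the control range for Aard, Gstm6 and Rhox8, and outside it for the others. K2 or K3 holds the highest value of each of the 9 tested genes.

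Among the secreted proteins, Clu was the most abundant. Clu (ENSMUSG00000022037) encodes clusterin, a secreted chaperone that coats proteins and lipids in tubule fluid, and lies on chromosome 14 from 65968483 to 65981547 in GRCm38 (plus strand, 9 exons in its principal transcript). Clu measured 234, 227 and 229 FPKM in C1 to C3 against 218, 270 and 282 FPKM in K1 to K3. The controls differed by little, with a coefficient of variation of 1.52%, against 13.2% among K1 to K3, where counting error alone gives 0.807%. K1 had the lowest Clu value of all 6, and K2 and K3 the highest. The log2 difference of Clu was 0.15 (SE, standard error, 0.13). Its 95% interval ran from -0.15 to 0.44 (limma adjusted p = 0.868).

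Trf (ENSMUSG00000032554) encodes transferrin, the iron carrier that Sertoli cells are known to pass to germ cells, and was the lowest of the members. It lies on chromosome 9 from 103204001 to 103230444 (minus strand). It measured 0.238, 0.0651 and 0.157 FPKM in C1 to C3 against 0.366, 0.295 and 0.124 FPKM in K1 to K3, which stand for 4 to 23 reads. Counting error alone gives a coefficient of variation of 28.3% at that depth, beside 56.5% and 47.7% between libraries of a group. Trf was below the minimum for the test. Without a minimum its log2 difference was 0.13 (SE 0.10, limma adjusted p = 0.856). On recovered reads limma-voom gave Trf 0.78 (SE 0.58, adjusted p = 0.858). The gene model Gm20425 overlaps Trf on chromosome 9 and shares 60.6% of its 31-base words, and it held only 0 to 8 reads per library. How reads were split between them is not given, so the level of Trf is uncertain.

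Ctsl (ENSMUSG00000021477) encodes cathepsin L, a lysosomal cysteine protease that Sertoli cells also secrete, on chromosome 13 from 64359337 to 64370890 (minus strand). Ctsl measured 35.8, 32.4 and 35.3 FPKM in C1 to C3 against 36.1, 40.0 and 34.6 FPKM in K1 to K3. Its groups overlapped, and its interval was the narrowest of the members, from -0.12 to 0.31 around a log2 difference of 0.09. Ctsl shares 28.2% of its 31-base words with other gene models, mostly with the antisense model Gm47123, which is listed at 0 in all 6 libraries. The pseudogene model Gm49230 also overlaps Ctsl, on the same strand, and is likewise at 0 in all 6. How reads were split among these models is not given.

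Of the other 10 tested cathepsins, 0 passed in either direction, with a median log2 difference of 0.11 (0.03 without K2 to 0.22 without K1). The 3 most abundant of them, Ctsd, Ctsb and Ctsf, had log2 differences of 0.14, 0.15 and 0.26.

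The cystatin genes Cst9 and Cst12 had the lowest differences of the group. Both encode cystatin-like secreted proteins; Cst9, known as testatin, is made in Sertoli cells from the time the fetal testis forms. They lie in the cystatin cluster of chromosome 2, Cst12 (ENSMUSG00000027443) from 148789361 to 148793546 and Cst9 (ENSMUSG00000027445) from 148835147 to 148838738 (plus strand, 3 exons each). Cst9 measured 109, 103 and 108 FPKM in C1 to C3 against 97.7, 62.7 and 114 FPKM in K1 to K3. Cst12 measured 58.3, 59.4 and 67.9 FPKM in C1 to C3 against 56.2, 42.3 and 73.7 FPKM in K1 to K3. In both genes K2 was the lowest of the 6 and K3 the highest.

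The ratio of Cst9 to Cst12 lay between 1.48 and 1.87 over the 6 libraries. In K2 Cst9 was at 0.587 and Cst12 at 0.683 of their control means, and in K3 at 1.07 and 1.19. The log2 difference was -0.26 (SE 0.21) for Cst9 and -0.14 (SE 0.19) for Cst12 (limma adjusted p = 0.868 and 0.887). Without K2 these became -0.02 and 0.06. Short transcripts as a class were also low in that library: the 383 tested protein-coding genes under 800 bases lay by a median of -0.25 from the mean of the other 5 libraries on the log2 scale, against 0.03 for all 13477, and Cst9 and Cst12, of 687 and 655 bases, lay at -0.75 and -0.56. The 10% quantile of the short genes in K2 was -0.748. In C1 the median of the short genes was 0.25, with Cst9 and Cst12 at 0.19 and -0.01. In K1 it was 0.15, with them at 0.01 and -0.08. In K3 it was -0.03, with them at 0.27 and 0.39. In C2 and C3 it was -0.004 and -0.018, with Cst9 at 0.10 and 0.18 and Cst12 at 0.02 and 0.25. The part of transcript length in the cystatin values was not tested.

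Cst8, Cst13 and Cstl1 of the same cluster are known from germ cells rather than Sertoli cells. Cst8, which encodes the spermatid protein CRES, measured 151, 125 and 121 FPKM in C1 to C3 against 149, 82.7 and 65.3 FPKM in K1 to K3. In the same order Cst13 measured 79.5, 70.9 and 59.0 against 77.9, 44.9 and 37.6 FPKM, and Cstl1 63.3, 57.1 and 40.9 against 71.7, 35.9 and 28.8 FPKM. Like Cst9 and Cst12 they were below every control in K2, at 0.625 of the control mean for Cst8. They were lower still in K3, where Cst8 was at 0.493 and Cst13 at 0.539 of their control means and Cst9 and Cst12 above theirs. The ratio of Cst8 to Cst13 lay between 1.74 and 2.06 over the 6 libraries. The ratio of Cst9 to Cst8 was 0.655 to 0.894 in 5 libraries and 1.74 in K3. None of the 5 other tested cystatins passed in either direction (median log2 difference -0.32). That median was -0.70 without K1, -0.51 without C3, -0.20 without C1, -0.21 without K2 and -0.09 without K3, and -0.05 with no minimum level. The ubiquitous Cst3 and Cstb had log2 differences of -0.07 and 0.13.

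**Figure D2:**
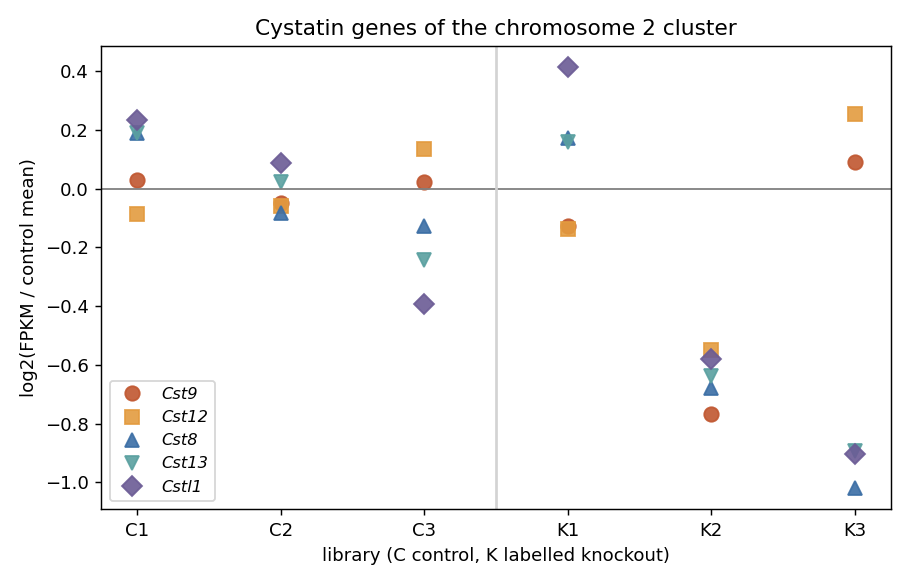
Log2 of FPKM over the control mean in each library for 5 cystatin genes of the chromosome 2 cluster; points are single libraries. All 5 genes lie below 0 in K2, whereas in K3 Cst9 and Cst12 lie above 0 and Cst8, Cst13 and Cstl1 far below.

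The 250 bases before the RefSeq start of Cst12 and Cst9 are shown because both genes were lowest in K2 and highest in K3, and those of Gstm6 because it had the largest difference of the group. Sequences are from RefSeq promoter windows (GRCm38.p6), which held 6 of the 10 members. They were searched on both strands for the androgen response half-site AGAACA, and for the full element made of AGAACA, the spacer NNN and the reverse complement TGTTCT, which therefore holds half-sites. Capitals mark half-sites.
Cst12, chr2:148789115-148789364, plus strand: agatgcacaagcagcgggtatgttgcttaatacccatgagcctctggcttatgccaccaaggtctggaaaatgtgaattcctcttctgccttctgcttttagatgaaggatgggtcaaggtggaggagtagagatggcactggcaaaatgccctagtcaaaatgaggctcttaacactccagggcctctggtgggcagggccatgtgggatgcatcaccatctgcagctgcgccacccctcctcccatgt
Cst9, chr2:148834897-148835146, plus strand: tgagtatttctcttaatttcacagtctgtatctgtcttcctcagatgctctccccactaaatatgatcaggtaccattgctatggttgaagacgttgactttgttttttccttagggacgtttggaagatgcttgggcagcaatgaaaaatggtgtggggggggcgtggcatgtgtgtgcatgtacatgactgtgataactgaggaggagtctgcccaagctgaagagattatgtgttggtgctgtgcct
Gstm6, chr3:107943735-107943984, minus strand: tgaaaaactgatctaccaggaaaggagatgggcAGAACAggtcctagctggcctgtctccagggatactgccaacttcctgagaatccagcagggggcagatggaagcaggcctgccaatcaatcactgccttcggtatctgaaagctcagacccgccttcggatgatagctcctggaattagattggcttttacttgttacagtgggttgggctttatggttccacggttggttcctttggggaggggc

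The Cst12 and Cst9 windows held no half-site. Gstm6 had 3 windows, of which the one shown held 1 half-site, 217 bases before the start. Another held none, and its start lies at 107953466, far before the gene model that was counted. Over all 8 windows of members, 3 held a half-site and 0 the full element, where 16.1% and 0.00913% of all 32851 windows of this length do. The other 2 with a half-site were a further Gstm6 start and the Rhox5 start, and the latter lies at 37754608 on chromosome X, far before the gene model that was counted, so it is not the promoter beside the counted exons. A match in these letters is a description and not a site.

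Gstm6 (ENSMUSG00000068762) encodes a mu-class glutathione S-transferase, an enzyme that joins glutathione to reactive compounds, and lies on chromosome 3 from 107938847 to 107943749 (minus strand, 8 exons). Gstm6 measured 16.0, 14.7 and 18.7 FPKM in C1 to C3 against 16.9, 25.1 and 24.6 FPKM in K1 to K3. K2 and K3 were above every control, and K1 lay within the controls. The log2 difference of 0.40 had a standard error of 0.17 and its 95% interval spanned 0.002 to 0.79. By limma its p was 0.0491 before adjustment and 0.868 after. The unadjusted result depended on the processing. With 0.1 or 0.01 in place of the 1 added to FPKM, 0 members were under 0.05 unadjusted. The same held with no minimum level, quantile normalization, either covariate used below, or without C1, C2, K2 or K3. The other alternatives listed below had 1 to 3 such members. An exact two-sided permutation test of the means gave p = 0.2, where 0.1 is the smallest that 3 libraries against 3 allow. Gstm6 shares 9.62% of its 31-base words with other genes, 4.52% with Gstm3.

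Other glutathione S-transferases were measured beside it. None of the 10 tested ones passed, and their median log2 difference was 0.10 (-0.01 without K2 to 0.16 without K3). Gstm7, the neighbour of Gstm6, had a log2 difference of 0.21, and Gsta4 and Gsta2 had 0.18 and 0.26. Gstm5, which is the most abundant member of the family in testis and is known from germ cells and sperm, was at 889 ± 133 FPKM in C1 to C3 against 759 ± 206 FPKM in K1 to K3 (SD, n = 3), a log2 difference of -0.25. Gstm1 and Gstm2 had differences of 0.03 and -0.01. Gstm4, Gstp1, Mgst1 and Gstt1 lay between -0.07 and 0.16.

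Rhox5 (ENSMUSG00000095180) and Rhox8 (ENSMUSG00000064137) encode homeobox transcription factors of the reproductive homeobox cluster on chromosome X, Rhox5 from 37804842 to 37808876 (plus strand) and Rhox8 from 37874778 to 37878944 (minus strand), with 4 exons each. Rhox5 is known to be driven in Sertoli cells by an androgen-dependent promoter. It measured 8.71, 6.16 and 7.66 FPKM in C1 to C3 against 8.84, 7.88 and 10.7 FPKM in K1 to K3, from 86 to 157 reads. Counting error gives a coefficient of variation of 9.32% for Rhox5, beside 17.1% and 15.6% between libraries of a group. Rhox8 measured 12.5, 11.9 and 13.0 FPKM in C1 to C3 against 12.2, 18.1 and 13.1 FPKM in K1 to K3.

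The higher Rhox8 mean in K1 to K3 rested on K2. Its log2 difference was 0.18 (SE 0.15) over all libraries and 0.02 without that one. Rhox5 had a difference of 0.25 (SE 0.15) and a 95% interval of -0.10 to 0.61 (limma adjusted p = 0.868 for both). The highest Rhox5 value was in K3 and the highest Rhox8 value in K2. Of the other 17 genes of the cluster on the list, 2 reached a mean of at least 0.5 FPKM. These were Rhox13 and Rhox11, known from germ cells, with log2 differences of 0.24 and -0.23.

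Aard (ENSMUSG00000068522) encodes a small alanine- and arginine-rich protein of little known function, on chromosome 15 from 52040107 to 52045722 (plus strand, 2 exons). Aard measured 97.9, 95.9 and 108 FPKM in C1 to C3 against 99.4, 135 and 129 FPKM in K1 to K3. As in Gstm6, K1 lay among the controls and K2 and K3 above them. The log2 difference was 0.25 (SE 0.14), with a 95% interval of -0.07 to 0.57 (limma adjusted p = 0.868).

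Defb45 (ENSMUSG00000062124) encodes a beta-defensin, a small secreted antimicrobial peptide, in the defensin cluster of chromosome 2 from 152593191 to 152599399 (minus strand). It measured 4.94, 3.84 and 4.40 FPKM in C1 to C3 against 2.95, 5.66 and 4.51 FPKM in K1 to K3. Only 33 to 58 reads stood behind these values, for which counting error alone gives a coefficient of variation of 14.6%. Defb45 averaged 4.39 ± 0.550 and 4.37 ± 1.36 FPKM in the groups (SD, n = 3), with a log2 difference of -0.03 and an interval from -0.50 to 0.43. Its neighbours Defb19 and Defb36, also known from Sertoli cells, were far more abundant. Defb19 was at 133 ± 24.7 and 127 ± 33.9 FPKM, and Defb36 at 34.0 ± 9.76 and 48.4 ± 14.1 FPKM (controls, then knockout-labelled, SD, n = 3). Their log2 differences were -0.08 and 0.49 (limma adjusted p = 0.940 and 0.868). Defb21, also of the cluster, had a difference of 0.03.

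**Figure D3:**
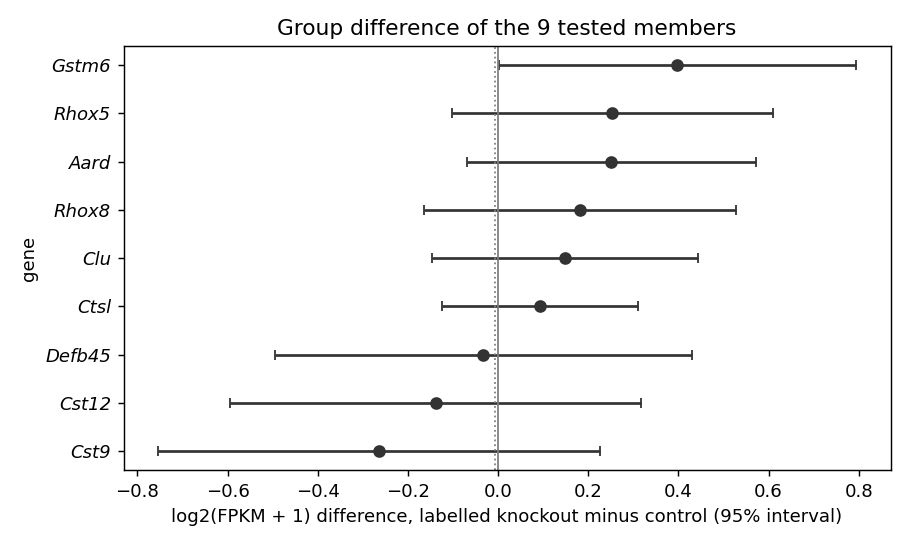
Log2(FPKM + 1) difference of labelled knockout minus control for the 9 tested members, with 95% intervals from limma-trend; the dotted line is the median of all tested genes. Estimates run from -0.26 for Cst9 to 0.40 for Gstm6, and in this fit the interval of Gstm6 alone lies above 0 (from 0.002 to 0.79).

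Levels between genes can be set side by side because FPKM is per length. In controls the order of mean levels, from the highest, was Clu (230 FPKM), Cst9 (107), Aard (101), Cst12 (61.8), Ctsl (34.5), Gstm6 (16.5), Rhox8 (12.4), Rhox5 (7.51), Defb45 (4.39) and Trf (0.153). Of neighbours in that order only the control ranges of Cst9 and Aard overlapped. In K1 to K3 Aard (121 FPKM) stood above Cst9 (91.4 FPKM) in mean, with overlapping ranges. The deposited lengths of all 10 members equalled the union of their GENCODE M21 exons, which can be longer than a single transcript. Ctsl has 2 principal transcripts, of 6168 and 1971 bases, beside a deposited length of 6489. If all its reads came from the shorter one, its control level would be 114 FPKM. On this basis Clu would be at 437, Gstm6 at 28.4, Defb45 at 6.74, Cst12 at 74.2, Rhox5 at 8.95 and Trf at 0.218 FPKM. Cst9, Aard and Rhox8 would stay as given. Ctsl would then stand next after Clu, but its longer principal transcript is close to the deposited length and would leave its rank as above. Which form the Ctsl reads came from was not tested.

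Every tested member had its highest value in K2 or K3, 5 in K2 and 4 in K3, where 41.0% of all tested genes had theirs. C2 held the lowest value of 5 members, and of 13.6% of all tested genes. Without K1, Clu, Aard, Gstm6 and Rhox8 had groups that did not overlap, all of them higher, where 38.3% of all tested genes had such groups in these 5 libraries, 18.7% higher and 19.6% lower. Without K3 there were 3, Ctsl higher and Cst9 and Cst12 lower, beside 15.2% of all tested genes. Without C3 there were 2, Aard and Gstm6, both higher, beside 18.0%. Rhox5 alone was higher without C1 or without K2, beside 18.5% and 13.3%, and there were 0 without C2, beside 14.9%. No member passed without K1 (smallest limma adjusted p of a member 0.150, for Gstm6, with log2 differences of 0.57 for Gstm6, 0.39 for Aard, 0.29 for Rhox8 and 0.26 for Clu).

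A list of Sertoli identity genes and receptors was set beside these products. Whether other testis cells also make RNA of these genes was not tested. In the Sertoli identity list 0 of 19 tested genes passed in either direction. A difference above 0 was seen in 17, where 48.6% of all tested genes had one. The median was 0.20 (0.15 without K3 to 0.32 without K1). Groups did not overlap for Fshr (higher) and Slc16a1 (lower), beside 4.15% and 4.41% of all tested genes in those directions. Amhr2, the receptor for anti-Müllerian hormone, was at 96.9 ± 5.25 and 114 ± 14.2 FPKM, and Cldn11, a claudin of the blood-testis barrier, at 43.9 ± 3.19 and 55.5 ± 12.8 FPKM (controls, then knockout-labelled, SD, n = 3). Ldhb, a lactate dehydrogenase subunit, was at 49.7 ± 4.0 and 52.9 ± 5.33 FPKM. The mean centred log2 level of this list was -0.15, -0.10 and -0.01 in C1 to C3 and -0.13, 0.18 and 0.21 in K1 to K3. The members' mean level was -0.02, -0.15 and 0.01 in C1 to C3 and -0.10, 0.07 and 0.19 in K1 to K3.

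Among 12 other genes known to be androgen-regulated in Sertoli cells, 0 passed in either direction, 8 had a difference above 0 and 4 below, and the median was 0.21 (0.12 without K2 to 0.25 without K1). Eppin, a secreted protease inhibitor, measured 21.6, 21.2 and 24.1 FPKM in C1 to C3 against 28.2, 26.3 and 26.0 FPKM in K1 to K3. Its groups did not overlap, which 4.15% of all tested genes showed in the higher direction, and its log2 difference was 0.26 (SE 0.09, limma adjusted p = 0.868). It was the only one of the 12 without overlap. Drd4, Aqp8 and Tubb3 had differences of 0.47, 0.38 and 0.31, and Cldn3, Tsx and Spink8 of -0.15, -0.04 and -0.19. Gpd1, Tpd52l1 and B4galnt1 had 0.27, 0.16 and 0.10.

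Of 20 tested genes on a list of other secreted Sertoli products, 0 passed in either direction, with 12 above 0 and 8 below and a median of 0.02 (-0.04 without K2 to 0.16 without K1). The matrix protein gene Sparc was at 119 ± 17.3 and 120 ± 18.4 FPKM and the inhibin subunit gene Inha at 59.3 ± 3.03 and 60.8 ± 18.6 FPKM (controls, then knockout-labelled, SD, n = 3). Cst3, with a mean level between theirs, is given with the cystatins.

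Markers of other cell types also differed between these libraries. Of all tested genes 48.6% had a difference above 0. The late spermatid list had 12 of 12 members below 0 and a median log2 difference of -0.44, with levels of 0.48, 0.31 and -0.12 in C1 to C3 and 0.34, -0.36 and -0.64 in K1 to K3. The median was -0.70 without K1, -0.30 without C1 and -0.24 without K3. Its summed FPKM ranged from 12210 to 20820 in controls and from 9158 to 17700 in K1 to K3. Macrophage genes had 8 of 8 members above 0, a median of 0.25 (0.12 without K3, 0.38 without K1), and a summed level of 34.9 to 38.5 FPKM in controls and 35.01 to 51.3 FPKM in K1 to K3. Myoid genes had 6 of 7 above 0 with a median of 0.30 (0.13 without K2, 0.45 without K1). Their summed level was 167 to 195 and 146 to 194 FPKM, of which Actg2, the 1 gene below 0 at -0.30, made up 130 FPKM in controls. Leydig genes 10 of 11 below 0 with a median of -0.18, at 438 to 469 and 296 to 482 FPKM. The Leydig level was 0.16, 0.11 and -0.51 in K1 to K3, and without K3 the median turned to 0.04. Endothelial, spermatogonial, spermatocyte and round spermatid lists had medians of 0.06, 0.09, -0.16 and -0.23. With 1 library left out these ran from 0.03 to 0.18, -0.02 to 0.14, -0.23 to -0.07 and -0.35 to -0.14. None of these genes passed in either direction, and the part of these shifts in the members' values was not tested.

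**Figure D4:**
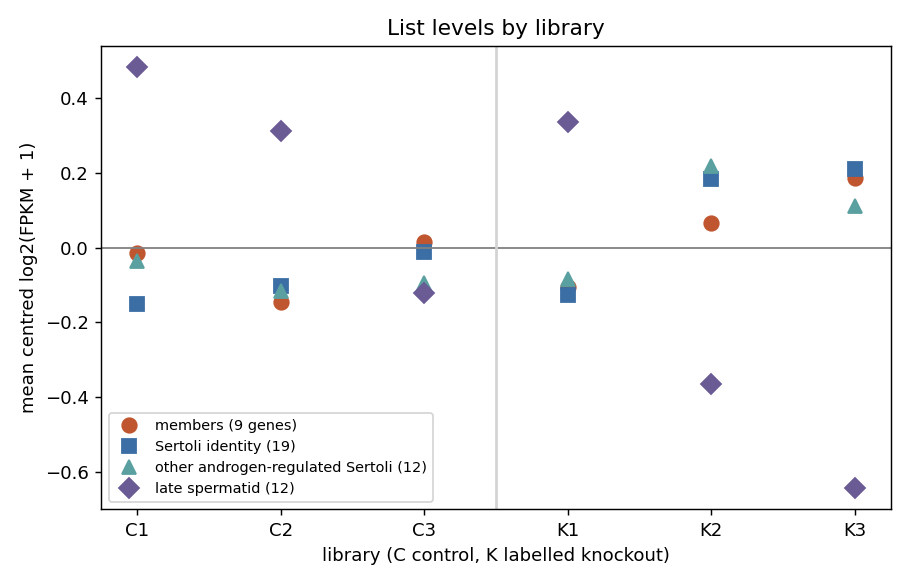
Mean centred log2(FPKM + 1) of 4 gene lists in each library; points are single libraries. The members and both Sertoli lists are highest in K2 and K3, where the late spermatid level is lowest, at -0.36 and -0.64.

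To compare the members with the Sertoli identity genes, the mean log2(FPKM + 1) of that list was subtracted in each library. On this scale Clu was at 4.48, 4.39 and 4.31 in C1 to C3 and 4.35, 4.35 and 4.38 in K1 to K3, a difference of -0.03 in means. Aard, Rhox5 and Rhox8 differed by 0.08, 0.08 and 0.01, and Gstm6 by 0.22. Ctsl and Defb45 differed by -0.08 and -0.21. The SD of Clu on this scale was 0.083 in controls and 0.020 in K1 to K3.

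Cst9 was at 3.38, 3.25 and 3.23 relative to the Sertoli identity genes in C1 to C3 and 3.20, 2.26 and 3.08 in K1 to K3. Cst12 was at 2.487, 2.465 and 2.566 and at 2.411, 1.701 and 2.462. For these 2 of the 9 members all of K1 to K3 lay below all controls, where 9.24% of all tested genes did so on this scale and 0.506% had the reverse. For Cst12 the groups were only just apart, at 2.462 in K3 and 2.465 in C2. The differences were -0.44 for Cst9 and -0.32 for Cst12, with an exact two-sided permutation p of 0.1 for each, the smallest that 3 libraries against 3 can give. Without K2 they were -0.15 and -0.07. The exact p of the other 7 members ran from 0.2 to 1, and p-values were not adjusted over the 9 tests.

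**Figure D5:**
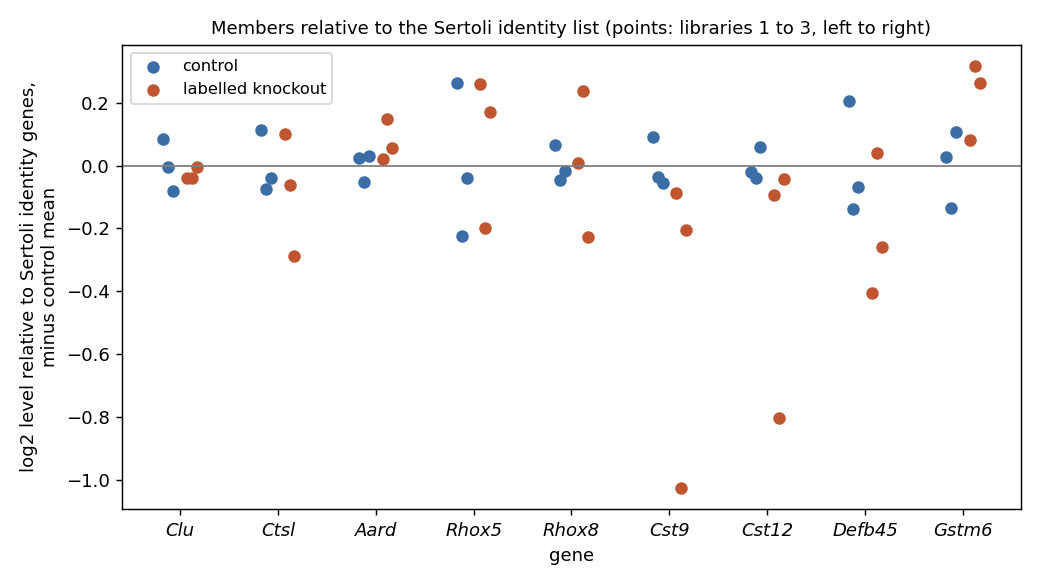
Log2 level of each tested member minus that of the Sertoli identity list, set to 0 at the control mean; points are libraries 1 to 3 of each group from left to right. Clu lies within a narrow band in both groups, and Cst9 and Cst12 are lowest in K2.

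In a fit with the Sertoli identity level as a covariate, the log2 difference was -0.01 for Clu, 0.08 for Ctsl, 0.04 for Aard, 0.03 for Rhox8 and 0.10 for Gstm6. It was 0.23 for Rhox5, -0.19 for Cst9, -0.19 for Cst12 and -0.31 for Defb45, and no member passed (limma adjusted p = 0.9999 for each). With the late spermatid level as the covariate instead, Clu was at 0.03, Ctsl at 0.09, Aard at 0.08, Rhox5 at 0.21, Rhox8 at 0.09 and Gstm6 at 0.16. Cst9, Cst12 and Defb45 were at -0.27, -0.25 and -0.22 there. Each of these fits has 3 terms for 6 libraries.

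The mean course of the members over the 6 libraries was compared with that of 4113 other protein-coding genes averaging 5 FPKM or more and with at least as wide a range. The likeness was the root mean square difference of the centred log2(FPKM + 1) values over the 6 libraries. The 5 most alike were Stmn1, Tbl2, Ppp1ca, Lman2 and Ogg1, at 0.028 to 0.035, and none of them is on the Sertoli lists. Members themselves lay at 0.063 for Clu to 0.315 for Cst9 from their own mean course. The choice of these 5 rests on single libraries: with 1 library left out, 0 to 3 of them remained among the 5 most alike.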

How the data were processed

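Per the labels' protocols, Trizol was used to extract the RNA and a SMARTER kit to make the 3 control and 3 knockout-labelled libraries. Gene levels come as FPKM in a single table that the authors deposited, with length and position. Builds named in the submitters' processing notes are GRCm38 and mm10. Aligner, counter, annotation, strand setting and filtering were not given in the sources used here. Groups and replicate numbers come from the sample titles. The members and gene lists were chosen with earlier results of these data known.

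Whole reads were recovered from the deposited FPKM and lengths for 100% of values above 0 (tolerance 0.001 reads). The test was limma 3.58.1 (R 4.3.3), lmFit and eBayes with trend and only a group term, on log2(FPKM + 1) of genes averaging 0.5 FPKM or more, at 0.05 after Benjamini-Hochberg adjustment. This scale understates changes of low genes. The fit was tested on simulated data. Coordinates of the members were identical in GENCODE M21. Sequence sharing is the percent of a gene's distinct 31-base words found in transcripts of other genes on either strand.

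Named genes were the members, Tmc7, the tested relatives of members, the 3 highest genes of each list (those of some marker lists are given only by their list) and the 5 genes most alike in course. Other list genes, the promoter windows and the overlapping models Gm20425, Gm47123 and Gm49230 were named after their values were seen. The length comparison and the ratios between cystatins were also chosen after values were seen. One further Sertoli marker is not reported here. Of 12 cystatins and 12 beta-defensins listed, 11 each matched a symbol of the table. The alternatives were other pseudocounts, filters and normalizations, a replicate block, array weights, limma-voom, 2 covariates and each library left out.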

Additional observations from a re-analysis of the deposited data

How the results depend on the processing

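Under 17 alternatives 0 members and 0 listed context genes passed, and 6 of 9 tested members kept their direction in all 17. Over all genes the count of calls was 0 except by limma-voom on recovered reads, where it was 1. Directions turned for Clu with the Sertoli identity level as a covariate (-0.011), for Cst12 without K2 (0.06), and for Defb45 with array weights (0.12), without C1 (0.04) and without K1 (0.17). The cause was not tested. With 1 library left out, log2 differences ranged from 0.08 to 0.26 for Clu, 0.17 to 0.39 for Aard, 0.30 to 0.57 for Gstm6, 0.02 to 0.29 for Rhox8, 0.13 to 0.35 for Rhox5, 0.04 to 0.14 for Ctsl, -0.44 to -0.02 for Cst9, -0.33 to 0.06 for Cst12 and -0.20 to 0.17 for Defb45. With the replicate block 0 members and 0 genes passed, as without it. The labels do not say that numbers pair samples, and deviations from the group means correlated by 0.286, 0.041 and 0.198 across genes between libraries 1, 2 and 3 of the groups, with 5 of 6 libraries closest to their own number. Low read counts limit Trf, Defb45 and Rhox5 most, and how reads were split between Trf and Gm20425 is not given.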
